A study of Mus musculus with 20 samples.

Results

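MicroRNAs (miRNAs) of the ascending aorta were compared between mice kept on a high fat diet for 18 weeks and mice kept on it for 6 weeks. The comparison used 6 of the 20 arrays of the study, 3 labelled week 18 high fat and 3 labelled week 6 high fat, chosen by their titles alone. Every mouse of the study was male and carried the double knockout genotype that the labels write as Apobtm2Sgy/Ldltm1Her, so the chow controls carried it too. The first allele is known for keeping only the full-length form of apolipoprotein B, and the second removes the receptor for low density lipoprotein. Both are germline changes, present in every cell and not limited to the vessel wall. The tissue was labelled as ascending aorta with its atherosclerotic lesion, and how many animals gave each RNA is not given in the sources used here. The chow arrays of weeks 6 and 18, 3 of each, served as the second time series. The labels alone make the replicates separate samples. Each p-value rests on the spread between replicates pooled over all 7 groups of the study, part of which may be technical.

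A mature miRNA is a short RNA that guides the Argonaute protein to messenger RNAs and lowers their output. Pairing rests mainly on the seed, bases 2 to 8 counted from the 5′ end, so miRNAs with the same seed are treated as a family. In the artery, miR-143 and miR-145 mark contractile smooth muscle and miR-126 marks endothelium, while miR-142, miR-150, miR-155 and miR-223 are carried by leukocytes that enter a lesion as it grows. A change in a miRNA measured in whole tissue can reflect the cells present or their content: fewer cells of a type and less RNA per cell cannot be told apart in these data.

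The sequences below belong to miRNAs described in the results, with the seed in capitals, and none of them passed the test of the time step on high fat. They are mature sequences from RefSeq (assembly GRCm38.p6), which matched 496 of the 609 tested miRNAs. The first set holds 5 of the miRNAs with positive differences of small p, picked to show runs of G. Others of similar difference, such as miR-6385 with 52.4% G and C, were less rich in these bases.
miR-7036a-5p: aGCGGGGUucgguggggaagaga
miR-6769b-5p: cCUGGUGGguggggaagagc
miR-6354: uGCCCUGGggaucaggucucu
miR-7048-5p: cGGGGCUGagaggugaggaagc
miR-7118-5p: uGGGGAAGgcgggagagggaac
Each of these 5 has a seed of its own. The genes of miR-7036a, miR-6769b, miR-7048 and miR-7118 lie within the spans of the protein-coding genes Srrt, Unc13a, Dedd2 and Plxnb2. The array's probe for miR-7036a-5p is placed at chr5:137296638-137296651 in mouse build mm9, per the file.

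The second set holds the miRNAs with the largest negative differences, both arms of the miR-142 hairpin, and a miR-17 to miR-92 cluster member. These are poorer in G and C.
miR-142a-5p: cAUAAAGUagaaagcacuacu
miR-142a-3p: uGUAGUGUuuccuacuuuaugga
miR-18a-5p: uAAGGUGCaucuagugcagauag
The files place their probes at chr11:87756870-87756887, chr11:87756904-87756925 and chr14:115443094-115443111 in mm9.

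The third set holds miRNAs whose step from week 6 to week 18 differed between the diets, with miR-181a-5p beside its relatives to show the seed that the 3 miR-181 sequences share.
miR-128-3p: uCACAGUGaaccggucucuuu
miR-181a-5p: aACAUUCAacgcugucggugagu
miR-181b-5p: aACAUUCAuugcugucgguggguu
miR-181d-5p: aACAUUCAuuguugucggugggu
Close relatives of this kind can hybridise to each other's probes. miR-128-3p comes from 2 genes, within R3hdm1 and Arpp21.

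Each array measured 1881 mature miRNAs, and 609 were tested, those detected on every array of at least 1 of the study's 7 groups. Detection on an array required that, for some probe of the miRNA, a share of at least 0.5 of its usable spots stood well above background. Levels are given as log2 of the scaled signal, with a common floor of 3.09. Floored values cannot be ranked, and levels of different miRNAs are not comparable because their probes differ. The 3 week 6 arrays detected 654, 588 and 345 miRNAs, and the 3 week 18 arrays 645, 556 and 328. Week 18 replicate 3 stood apart: its negative controls had an SD of 22.3 intensity units against at most 2.53 on the other 5 arrays. Week 18 replicates 1 and 2 shared a slide with the week 30 chow arrays, while replicate 3 lay on that of the week 30 high fat arrays. The lowest level detected on replicate 3 was 5.79, against at most 4.76 on the other 5, so lower levels there cannot be told from absence. Over the 192 miRNAs detected on all 20 arrays, its log2 levels differed from those of week 30 high fat replicate 2, a sample of another group, with an SD of 0.19, against a median of 0.95 for arrays of the same group on the same slide. The slide position written in the label of week 18 high fat replicate 1 belongs to a chow array in the files, so results were also computed with these week 18 replicates 1 exchanged between the diets. No slide held both weeks, so slide and week cannot be told apart.

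The artery's own miRNAs were present on all 6 arrays. The endothelial miR-126a-3p ranged from 10.82 to 12.14 and the smooth muscle miR-143-3p from 9.63 to 10.84. Markers of tissue next to the aorta were present too and varied widely: miR-1a-3p of striated muscle ranged from 7.19 to 12.57, and miR-200a-3p of epithelium from the floor to 8.45. Their part in the results below was not tested.

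No miRNA passed the test between week 18 and week 6 on high fat. With limma and Benjamini-Hochberg adjustment at 0.05, 0 of 609 were higher (0.00%) and 0 were lower (0.00%), and the smallest adjusted p was 0.472. Without adjustment, 61 had a p under 0.05, 44 of them higher at week 18 (7.22%) and 17 lower (2.79%). These errors pool the spread of all 7 groups, which was not equal: the median SD over miRNAs was 0.82 and 0.92 on the week 6 and week 18 high fat arrays and 0.29 on the week 6 chow arrays. With only the high fat arrays of both weeks in the fit, 17 had a p under 0.05, and the smallest adjusted p was 0.884 (limma). Differences are week 18 minus week 6 on the log2 scale, and their median over all 609 was −0.12, with 344 below 0 (56.5%). The median standard error was 0.61, which gives a 95% interval that reaches 1.28 to either side of a typical difference. The interval lay within 1 of 0 for 27 miRNAs and within 2 of 0 for 341, so with 3 arrays a group a doubling was not excluded for most miRNAs. Some of the 27, such as miR-363-3p, were at the floor on all 6 arrays. The floor adds no spread, so such intervals can be too narrow. Some arrays of 1 group differed more than arrays of different weeks. Over the same 192 miRNAs the SD of log2 differences was 1.80 between week 18 replicates 1 and 2, while it was 0.70 between week 6 replicate 1 and week 18 replicate 2.

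**Figure D1:**
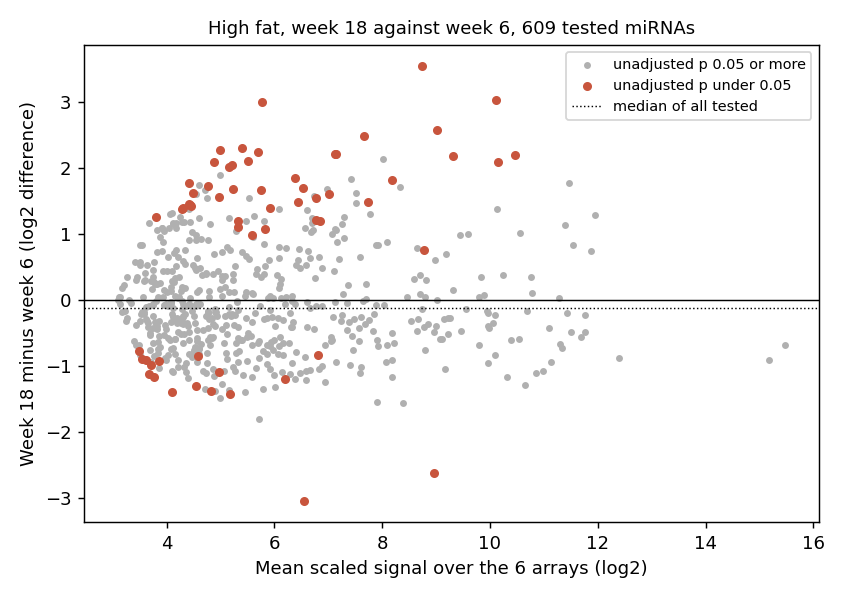
Difference between week 18 and week 6 on high fat (log2, vertical) against the mean scaled signal over the 6 arrays (log2, horizontal), 1 point for each of the 609 tested miRNAs. The 61 with an unadjusted p under 0.05 are coloured, 44 above and 17 below 0, none passed after adjustment, and the dotted line marks the median of −0.12.

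The largest positive difference was that of miR-7036a-5p. Its levels were 9.09, 5.96 and 5.88 on the week 6 arrays and 12.17, 8.53 and 10.85 on the week 18 arrays. Week 6 replicate 1 lay above week 18 replicate 2, so the groups overlapped. The difference was 3.54 with a standard error of 1.05, and neither it nor any other miRNA of this set passed (limma, adjusted p = 0.472). It was 2.72 without week 18 replicate 1 and 4.60 without week 6 replicate 1.

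miR-6769b-5p had the same order of arrays. It measured 10.35, 7.85 and 7.59 at week 6 and 13.30, 9.88 and 11.68 at week 18, a difference of 3.03 ± 0.94 (SE). For miR-6354 the levels were 6.30, 3.09 and 3.42 at week 6 and 8.38, 5.69 and 7.76 at week 18, a difference of 3.01 ± 1.05 (SE), with 1 week 6 array at the floor. In both, week 6 replicate 1 was again above week 18 replicate 2. miR-7048-5p measured 6.95, 5.38 and 5.71 at week 6 and 10.10, 6.55 and 8.02 at week 18, a difference of 2.21. miR-7118-5p measured 9.43, 7.44 and 7.83 at week 6 and 11.42, 9.07 and 10.74 at week 18, a difference of 2.18. Of the other 7 positive ones among the 15 smallest p-values, miR-6385, miR-135a-1-3p, miR-3057-5p, miR-7668-3p, miR-1892, miR-7022-5p and miR-1897-5p, the differences ran from 2.49 down to 1.49. All 12 kept a positive difference under every alternative in which they were tested.

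The 44 miRNAs on the higher side shared their order of arrays. Their mean levels were 6.62, 4.69 and 4.88 at week 6 and 8.21, 5.88 and 7.51 at week 18. In 43 of the 44, week 6 replicate 1 was above week 18 replicate 2, and in 43 it was above both other week 6 arrays. Over all 609 these counts were 388 and 163. They also shared a base composition that the comparison had not used: 34 had a mature sequence, with a median of 63.6% G and C against 54.5% over the 496 tested miRNAs with a sequence. They were not 1 family, since these 34 sequences held 33 distinct seeds. All 44 were positive in the chow step too, where 483 of all 609 had the same sign in both diets. The chow arrays are separate samples, but those of each week shared a slide with high fat arrays of that week, which was not separated from the sign.

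**Figure D2:**
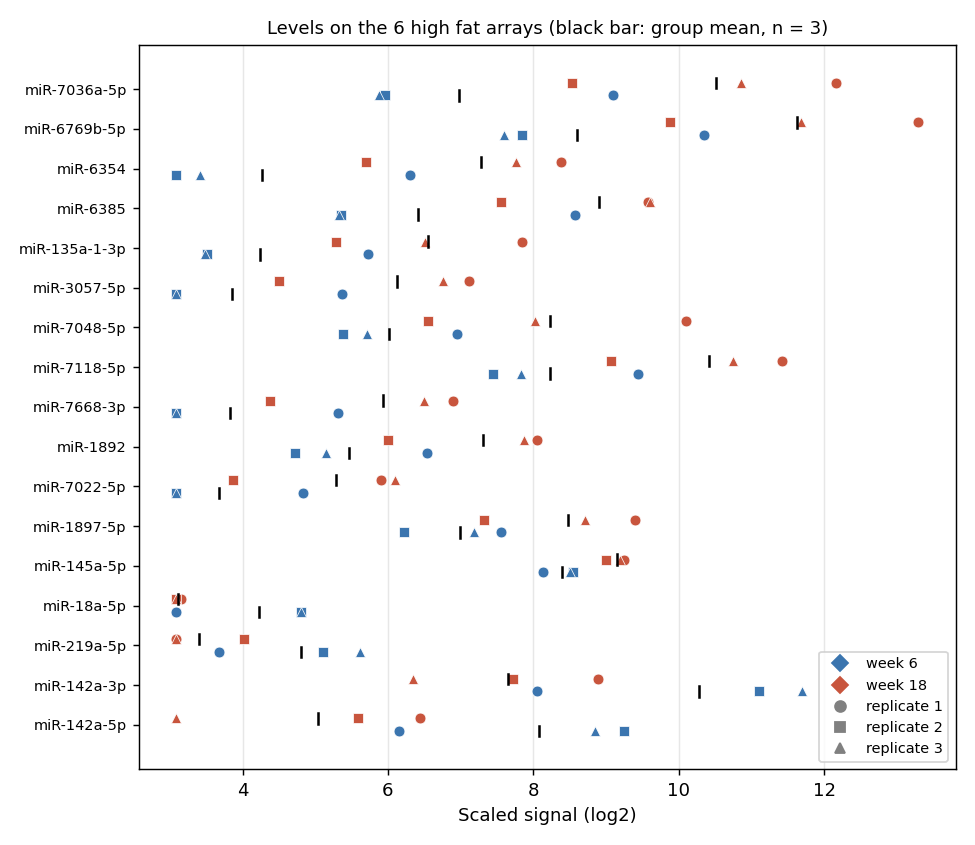
Scaled signal (log2) on each of the 6 high fat arrays for the 15 miRNAs of smallest p and for miR-142a-3p and miR-145a-5p, with week 6 in blue, week 18 in red, the replicate number as the marker shape and a black bar at each group mean (n = 3). In the higher rows week 6 replicate 1 sits above week 18 replicate 2, and miR-145a-5p is the one row in which all week 18 arrays lie above all week 6 arrays.

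The largest negative differences belonged to the 2 arms of miR-142, which blood cells carry. miR-142a-5p measured 6.15, 9.24 and 8.84 at week 6 and 6.44, 5.58 and 3.09 at week 18. miR-142a-3p measured 8.05, 11.10 and 11.70 at week 6 and 8.89, 7.72 and 6.35 at week 18. Week 6 replicates 2 and 3 were the high arrays in both, and week 6 replicate 1 lay below week 18 replicate 1, so the groups overlapped. The differences were −3.04 ± 0.93 (SE) for the 5p arm and −2.63 ± 1.02 (SE) for the 3p arm, with adjusted p = 0.472 for the first (limma). The 5p value was −4.01 without week 6 replicate 1, −2.07 without week 18 replicate 3, where it was at the floor, and −1.69 without the 4 arrays of fewest detected miRNAs.

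The other leukocyte miRNAs followed the same arrays. All 8 tested members of the leukocyte list of 9 were negative, with a median of −1.25 against −0.12 over all miRNAs, and 0 passed the test. Averaged over the list, the levels were 6.04, 8.46 and 8.78 at week 6 and 7.93, 5.94 and 4.79 at week 18, so that week 6 replicate 1 resembled the week 18 arrays and week 18 replicate 1 the week 6 arrays. miR-150-5p, of mature lymphocytes, measured 6.82, 9.11 and 10.36 at week 6 and 10.28, 6.96 and 5.56 at week 18, a difference of −1.16 ± 1.12 (SE). miR-155-5p, induced on activation of macrophages and lymphocytes, measured 5.28, 7.69 and 7.95 at week 6 and 8.04, 4.82 and 4.47 at week 18, a difference of −1.19 ± 0.96 (SE). Week 18 replicate 1 was thus high in both while the other week 18 arrays were low. For miR-223-3p, abundant in neutrophils and monocytes, the difference was −0.68 ± 0.55 (SE). The list's median stayed negative under every alternative, but it was −0.55 without week 18 replicate 3, −2.10 without week 6 replicate 1, −2.47 without week 18 replicate 1 and −0.03 without the 4 arrays of fewest detected miRNAs. On chow the list's median step was −1.18, with 2 members called lower. For 0 members was the step called different between the diets.

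The miRNAs of developing lymphocytes, miR-128 and the miR-181 family, showed smaller differences. All 6 tested members were negative, with a median of −0.63 that became 0.05 without scaling between arrays, −1.14 without week 6 replicate 1 and −0.30 without week 6 replicate 3. miR-181a-5p, which tunes antigen receptor signalling, measured 5.48, 7.08 and 7.84 at week 6 and 6.68, 6.15 and 4.68 at week 18, a difference of −0.96 ± 0.71 (SE). Week 6 replicate 1 was again the low week 6 array and the groups overlapped.

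The miR-17 to miR-92 cluster and its paralogs, which are linked to cell division, were mostly negative. Of 14 tested members 12 were below 0, 1 was above and miR-363-3p was at the floor on all 6 arrays, with a median of −0.70. miR-19a-3p measured 4.74, 6.71 and 6.23 at week 6 and 4.27, 5.30 and 3.84 at week 18, a difference of −1.43 ± 0.63 (SE). miR-18a-5p measured 3.09, 4.80 and 4.81 at week 6 and 3.15, 3.09 and 3.09 at week 18, a difference of −1.12 ± 0.42 (SE), so it stood above the floor mainly on week 6 replicates 2 and 3. The floor adds no spread, so this standard error can be too small. With the floor raised to 5.79, the lowest level detected on week 18 replicate 3, the difference was 0. The list's median ranged from −1.32, without week 6 replicate 1, to −0.14, without scaling.

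Only 7 of 609 miRNAs (1.15%) had high fat groups that did not overlap, 1 higher at week 18 (0.164%) and 6 lower (0.985%). The higher one was miR-145a-5p, the smooth muscle miRNA that promotes the contractile state. It measured 8.14, 8.55 and 8.50 at week 6 and 9.25, 9.0 and 9.19 at week 18, every week 18 array above every week 6 array. The difference was 0.75, with a standard error of 0.34 and a 95% interval from 0.03 to 1.47, it did not pass after adjustment, and it lay between 0.43 and 1.54 over the alternatives. Its cluster partner miR-143-3p measured 9.90, 10.42 and 9.83 at week 6 and 9.63, 10.84 and 10.79 at week 18, so that its groups overlapped, with a difference of 0.37 ± 0.54 (SE). The smooth muscle list, with 3 tested members, had a median of 0.37, which stayed positive under every alternative, from 0.06 to 1.16. The list's median step on chow was 0.45.

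The 6 that were lower on every week 18 array were miR-7649-5p, miR-503-5p, miR-182-5p, miR-338-5p, miR-767 and miR-203-3p, all named after their values were seen. miR-503-5p, of the X-linked cluster with miR-322 and a relative of miR-15, measured 3.17, 3.99 and 4.81 at week 6 and was at the floor on all 3 week 18 arrays. It was not well above background there, and no fold is given because its bound is under 1. Its levels, and those of miR-182-5p (4.24, 4.80 and 3.59 at week 6), lay under 5.79, the lowest level detected on week 18 replicate 3. For both, a lower level on that array cannot be told from absence, and with the floor raised to 5.79 both differences were 0. miR-203-3p, a miRNA of stratified epithelium, measured 5.70, 6.47 and 6.35 at week 6 and 4.76, 5.65 and 5.02 at week 18, so the nearest arrays of the 2 weeks were close. miR-7649-5p measured 4.84, 5.91 and 5.79 at week 6 and 4.40, 4.54 and 3.47 at week 18. Its difference of −1.37 was the largest of the 6, and none passed the test. On week 18 replicate 3, miR-203-3p and miR-7649-5p lay under 5.79 as well, so their lower levels on that array cannot be told from absence.

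The remaining cells of the vessel wall gave small differences. The 4 endothelial members ranged from −0.48, for miR-126a-3p, to 0.12, and their median of 0.07 changed sign under 3 of the scalings and background corrections, reaching −0.29 with normexp. The 5 fibroblast members, miR-199 and miR-214, ranged from −0.90 to 0.38 with a median of −0.28, or 0.51 without scaling. The matrix-regulating miR-29 family had a median of −0.29 over 4 members. Single arrays moved these medians too: without week 6 replicate 1 they were −0.40 for endothelium, −0.67 for fibroblasts and −0.60 for miR-29, and without week 18 replicate 1 that of miR-29 was 0.02.

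Lists of adjacent tissues varied with single arrays. The 5 striated muscle members, all negative, had a median of −1.17, but their mean levels were 9.73, 9.92 and 8.68 at week 6 and 6.38, 10.53 and 8.11 at week 18. The highest and the lowest of the 6 arrays were therefore both of week 18, and without week 18 replicate 1 the median was −0.16. miR-133a-3p, a muscle miRNA, measured 10.90, 11.16 and 10.64 at week 6 and 7.95, 11.91 and 9.36 at week 18. All 9 epithelial members were negative with a median of −1.07, and their mean levels were 3.72, 7.14 and 5.12 at week 6 and 3.57, 5.37 and 3.46 at week 18. The median was −0.13 without week 6 replicate 2, the array of the highest epithelial level. The 7 adipose members, among them miR-193a-3p at 8.56, 9.05 and 9.91 against 5.42, 8.79 and 8.62, had a median of −0.68, which was 0.01 without week 18 replicate 1 and 0.11 without scaling. The 4 red cell members had a median of −0.18, and of the liver list the hepatocyte marker miR-122-5p was at the floor on 3 week 6 arrays and measured 4.22, 3.09 and 5.45 at week 18. The 5.45, on week 18 replicate 3, lay under 5.79, the lowest level detected on that array, so it cannot be told from absence.

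Among miRNAs of lesions and injury, 6 of 7 tested members were negative, with a median of −0.75. It was −1.31 without week 6 replicate 1, −0.24 without week 6 replicate 2, −0.40 without week 18 replicate 3 and −0.05 without the 4 arrays of fewest detected miRNAs. miR-21a-5p, a miRNA of injured vessels and of macrophages, measured 10.17, 12.38 and 11.66 at week 6 and 10.39, 10.52 and 9.99 at week 18, a difference of −1.10 ± 0.78 (SE). miR-146a-5p, an NF-kB target that restrains inflammatory signalling, measured 5.17, 7.54 and 7.30 at week 6 and 7.60, 5.38 and 3.09 at week 18, a difference of −1.31 ± 0.90 (SE). The arrays that were high for leukocyte miRNAs were high here as well, and 3 of these 7 members are also in the leukocyte list. The exception in sign was miR-204-5p, 5.09, 5.46 and 5.83 at week 6 and 5.38, 5.87 and 6.32 at week 18, a difference of 0.40 ± 0.35 (SE). Of the lipid regulators, miR-148a-3p, which lowers the receptor for low density lipoprotein, measured 6.98, 8.64 and 8.02 at week 6 and 7.47, 7.40 and 6.89 at week 18, and the 7 tested members had a median of −0.61 (0.18 without scaling).

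Broadly expressed families had small differences of like size. All 9 let-7 members, which mark differentiated cells, were negative with differences from −0.84 to −0.47 and a median of −0.61, which was 0.18 without scaling and −0.99 without week 6 replicate 1. let-7i-5p, the lowest, measured 9.74, 10.94 and 10.88 at week 6 and 9.41, 10.12 and 9.51 at week 18. The 7 members of the miR-15 and miR-322 family had a median of −0.50 and the 7 of the miR-30 family −0.30, both positive without scaling. The imprinted Dlk1-Dio3 cluster had 6 of 16 tested members above 0, and the rodent-specific Sfmbt2 cluster 5 of 42, with a median of −0.47. The mean level of the Sfmbt2 members was 6.10, 6.88 and 3.97 at week 6 and 4.27, 5.87 and 5.20 at week 18, the lowest value on week 6 replicate 3, and without week 6 replicate 2 their median was 0.12.

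**Figure D3:**
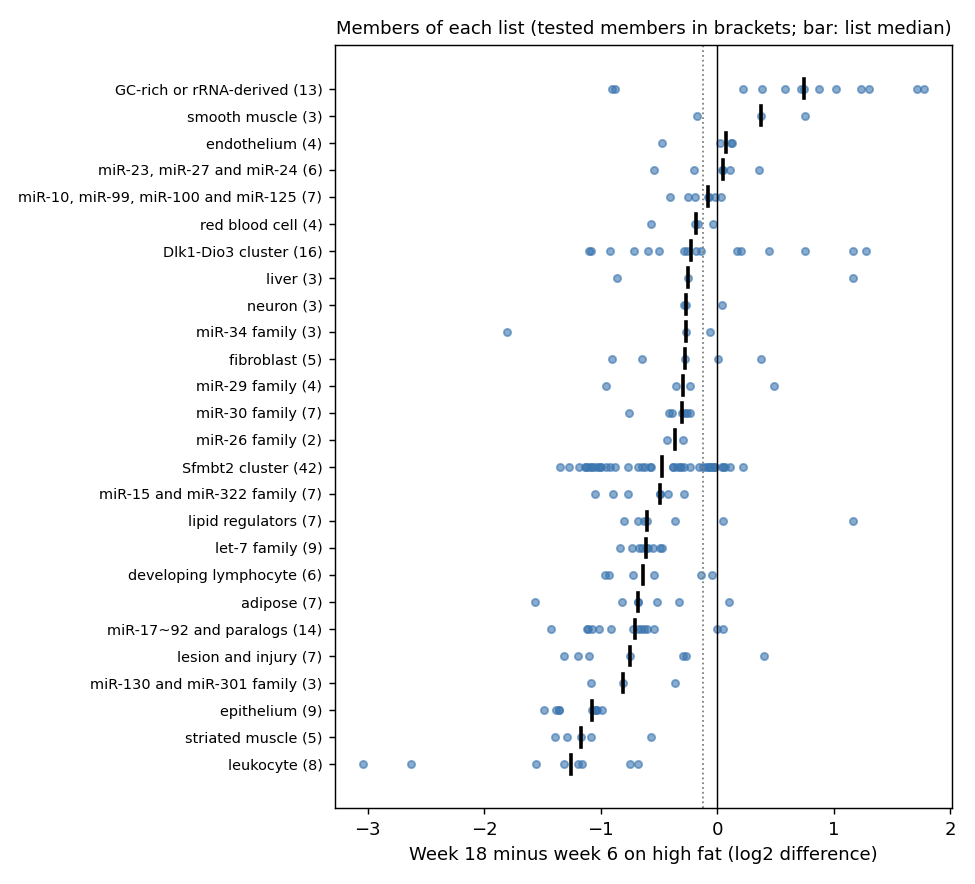
Week 18 minus week 6 on high fat (log2 difference, horizontal) for the tested members of each list, 1 point per miRNA, with a black bar at the list's median and a dotted line at the median of all 609 miRNAs, −0.12. The leukocyte list has the lowest median, −1.25, and the GC-rich list the highest, 0.74, and no point passed the adjusted test.

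The list with the highest median was that of GC-rich entries or entries derived from ribosomal RNA, whose status as miRNAs is uncertain. Of its 13 tested members 11 were positive, with a median of 0.74, and this was positive under every alternative, from 0.32 without week 18 replicate 1 to 1.53 without scaling. miR-1224-5p measured 11.46, 9.61 and 10.63 at week 6 and 14.88, 10.50 and 11.66 at week 18, and its difference of 1.78 ± 0.92 (SE) was 0.51 without week 18 replicate 1. miR-3963 and miR-5100 were the negative members, at −0.91 and −0.87, and no member passed.

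Across all sequenced miRNAs the difference followed base composition, as a description of these arrays. When these were put in 4 groups by G and C content, in the poorest group (23.8% to 45.5%, 126 miRNAs) the median difference was −0.49 and 19.8% were positive. In the richest group (65.0% to 100%, 95 miRNAs) it was 0.61 and 75.8% were positive, and the groups between had −0.22 and 0.24. Single arrays moved these medians: the richest group had 0.25 without week 18 replicate 1 and 1.05 without week 18 replicate 2, and the poorest −0.14 without week 6 replicate 2. Without scaling all 4 medians were positive, from 0.17 to 1.31. The mean level of the richest group was 6.37, 5.61 and 5.65 at week 6 and 7.15, 5.73 and 6.53 at week 18, so week 6 replicate 1 exceeded week 18 replicate 2 there too. In the poorest group it was 6.05, 7.16 and 6.46 at week 6 and 5.90, 6.45 and 5.92 at week 18. The chow step had group medians of −0.55, −0.64, 0.20 and 0.40. With normexp background correction and its offset of 50 intensity units, the medians on high fat were −0.53, −0.46, −0.28 and −0.0076. The order remained while no median was positive, and the part of base composition in single differences was not tested.

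**Figure D4:**
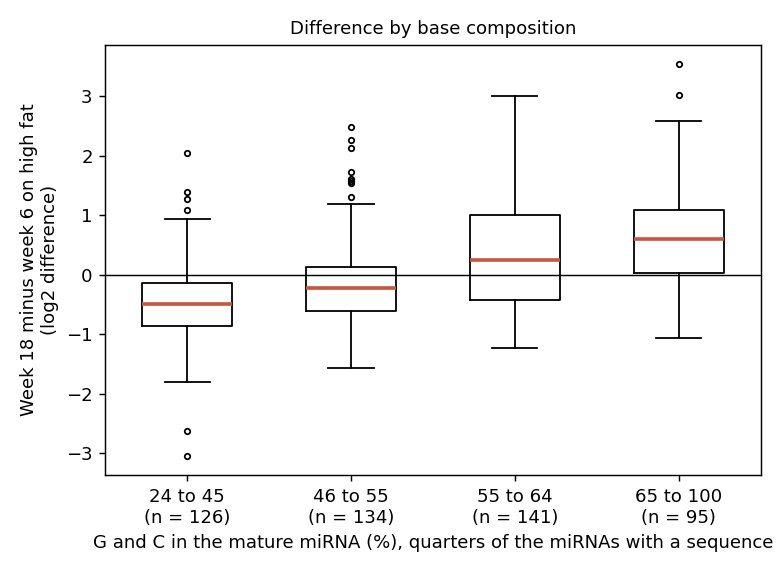
Week 18 minus week 6 on high fat (log2 difference, vertical) for the 496 tested miRNAs with a mature sequence, in 4 groups of G and C content (percent, horizontal), with boxes from the first to the third quartile, red lines at the medians, whiskers to 1.5 times the box height and points beyond. The medians go from −0.49 in the poorest group to 0.61 in the richest.

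The chow series tells how the same weeks looked without the high fat diet. There 100 of 609 miRNAs fell from week 6 to week 18 (16.4%) and 0 rose (0.00%, limma with Benjamini-Hochberg adjustment). Week 18 chow replicate 1 detected only 316 miRNAs. The lowest level detected on it was 5.70, so lower levels there cannot be told from absence. The spread between arrays was not equal, with a median SD over miRNAs of 0.29 on the week 6 chow arrays and 0.82 on the week 6 high fat arrays. The 100 that fell on chow were mostly negative on high fat as well, 83 of 100 against 51.3% of the other 509, but with a median difference of −0.55 in place of −2.32 on chow. On high fat, 9 of the 100 had an unadjusted p under 0.05, all on the lower side, which held 17 of all 609 (2.79%). These 100 were chosen by their chow values: their median level at week 6 was 6.21 on chow and 4.81 on high fat, and at week 18 it was 3.76 on chow and 4.17 on high fat. Without week 6 high fat replicate 2, 57 of the 100 were negative on high fat.

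The test of the difference between the diets' steps called 7 of 609 miRNAs (1.15%). All 7 fell on chow, and their steps on high fat lay between −0.93 and 0.22. miR-128-3p, expressed in developing lymphocytes and neurons, measured 4.79, 6.48 and 6.09 at week 6 and 5.28, 5.46 and 3.82 at week 18 on high fat, overlapping values. On chow it measured 9.62, 9.79 and 9.06 at week 6 and 3.52, 4.53 and 5.24 at week 18, without overlap. The 3.52, on week 18 chow replicate 1, lay under 5.70, the lowest level detected on that array. The high fat step was −0.93 and the chow step −5.06, and they differed by 4.13 ± 0.74 (SE, adjusted p = 0.00522, limma). miR-181b-5p gave high fat levels of 4.91, 6.07 and 6.53 at week 6 and 5.67, 5.14 and 5.06 at week 18, and its steps of −0.55 and −3.70 differed by 3.16 (adjusted p = 0.00522). miR-181d-5p, from the other miR-181 cluster, had steps of −0.14 and −2.55, which differed by 2.41 (adjusted p = 0.0379).

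The other 4 lay at or near the floor on the high fat arrays. miR-181a-1-3p, the opposite arm of a miR-181a hairpin, was between 3.09 and 3.84 on all 6, against 6.93, 7.05 and 6.29 on the week 6 chow arrays, and the steps differed by 3.63 (adjusted p = 3.69e-04, limma). miR-363-3p, of an X-linked copy of the miR-17 cluster, was at the floor on every high fat array and measured 5.42, 5.61 and 4.98 on the week 6 chow arrays. miR-466a-5p and miR-466p-5p of the Sfmbt2 cluster were at most 3.21 and 3.75 on high fat. The calls for these miRNAs rest on the week 6 chow arrays, 2 of which were near-identical (SD of log2 differences 0.28), and averaging near-identical arrays left 1 call, miR-181a-1-3p. With normexp background correction, which also added an offset of 50 intensity units and used no floor, 0 were called. The part of the offset was not tested. With array weights 86 were called.

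**Figure D5:**
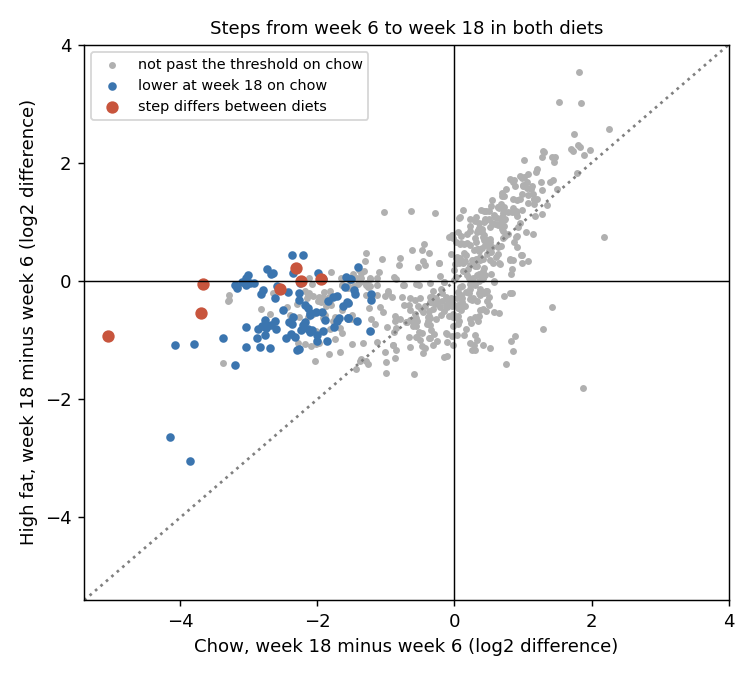
High fat step (week 18 minus week 6, log2 difference, vertical) against the chow step (horizontal) for the 609 tested miRNAs, with the 100 that fell on chow in blue and the 7 whose steps differed between diets in red. The blue points lie above the dotted line of equal steps, with a median of −0.55 on high fat and −2.32 on chow.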

How the data were processed

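Per the submitters' processing notes, arrays were read with Agilent Feature Extraction 11.5.1. The deposited values are 1-colour (Cy3) spot intensities on a linear scale, background-subtracted and spatially detrended per the file headers, with no scaling between arrays. Total RNA was taken with TRIZOL per the labels' protocols. Control and outlier spots were left out. The mean over the spots of each of the 4415 probes was taken first, then the mean over a miRNA's probes. Arrays were scaled by the 75th percentile of those 192 miRNAs that every array detected, floored at 3.09 and put on the log2 scale. limma 3.58.1 (lmFit and eBayes, R 4.3.3) was fitted to all 20 arrays in 7 groups with 13 residual degrees of freedom, 2-sided, with Benjamini-Hochberg adjustment at 0.05 over 609 miRNAs, and was tested on simulated data.

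Named miRNAs were those past the threshold without overlap, the 15 of smallest p, up to 4 per list, a fixed panel and up to 10 of the difference between diets; others are marked as chosen after their values were seen or are given as list members. The members and lists were chosen with earlier results of these data known. Alternatives changed the background correction, scaling, floor, filter, samples fitted, slide or replicate block, array weights and single arrays. The normexp alternative added an offset of 50 intensity units and used no floor. The number of arrays limits the precision.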

Additional observations from a re-analysis of the deposited data

Results flagged for a closer look

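In 7 miRNAs the step from week 6 to week 18 differed between high fat and chow by limma's test of that difference, with Benjamini-Hochberg adjustment over 609 miRNAs. The high fat step minus the chow step was 4.13 for miR-128-3p, 3.63 for miR-181a-1-3p, 3.16 for miR-181b-5p, 2.54 for miR-466p-5p, 2.41 for miR-181d-5p, 2.24 for miR-363-3p and 1.99 for miR-466a-5p, all on the log2 scale. In each, all 3 chow arrays of week 6 lay above all 3 chow arrays of week 18, while no high fat comparison of these miRNAs passed. The floor adds no spread, so the standard errors of the 4 that lay at or near it on high fat can be too small.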

How the results depend on the processing

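The count of 0 miRNAs higher at week 18 on high fat was the same under all alternatives run, and the count of 0 lower under all but 1. With the week 18 replicates 1 exchanged between the diets, 1 was lower, miR-142a-5p, at −4.16 with adjusted p = 0.0388 (limma). The count at an unadjusted p under 0.05, 61 as reported, moved with single arrays: it was 10 without week 6 replicate 2 and 148 without week 18 replicate 2. The direction of these calls moved as well, with 44 higher and 17 lower as reported, 103 and 1 without scaling, 11 and 58 without week 6 replicate 3, and 8 and 125 without the 4 arrays of fewest detected miRNAs. The median of all miRNAs was 0.43 without scaling, −0.40 with normexp, −0.32 with the 75th percentile over all miRNAs and −0.08 with quantile normalization.

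The count of steps that differed between diets, 7 as reported, was 0 with normexp and 0 with the 75th percentile over all miRNAs. It was also 0 of 192 when only miRNAs detected on every array were tested. That set holds none of the 7, so this count says nothing of them. It was 1 with quantile normalization, 1 without scaling, 1 with only the groups compared in the fit and 1 with near-identical arrays of the same group averaged. It was 15 with a floor at the highest of the arrays' lowest detected signals, an alternative chosen after seeing the data. These 15 held 3 of the 7, miR-128-3p, miR-181b-5p and miR-181a-1-3p. With array weights the count was 86, which held all 7. Leaving out each replicate in turn gave 5 to 8, and the cause of these moves was not tested. The difference between steps of miR-466a-5p turned to −0.0684 with normexp.

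With the replicate number as a block, 0 were higher, 0 lower and 6 steps differed between diets. Deviations of same-numbered arrays correlated at 0.11, 0.74 and −0.59, and those of other-numbered arrays at −0.75 to 0.59. Deviations sum to 0 within a group, so these values cannot show whether the numbers pair the samples. No pairing was used because animals killed at different weeks are different animals.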
